A study of Mus musculus with 35 samples.

Results

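This report follows 10 genes of the naive pluripotency network, Nanog, Esrrb, Tfcp2l1, Tbx3, Prdm14, Nr0b1, Nr5a2, Zfp42, Sall4 and Tcl1, through the conversion of mouse ES cells by GATA6. They were taken by gene symbol from the 44853 genes of the induction table, which holds all 10, and from the 6275 genes of the siRNA table, which holds 8 and lists neither Prdm14 nor Sall4. The siRNA table was restricted by the authors to genes responsive to GATA6. RNA-seq was run on polyA RNA of 35 libraries, and levels are given as TPM, which states how much of a library's RNA a gene makes up after correction for gene length. The inducible cells were KH2 ES cells of genotype C57BL/6 x 129/Sv that carry a doxycycline (Dox) inducible Gata6 cassette, grown on feeder fibroblasts with LIF. They were sequenced untreated (0 h) and after 16, 24, 48, 72, 96 and 168 h in Dox at 1 µg/mL, with 3 libraries per time. XEN cells, an extra-embryonic endoderm line (X10, wild type, genotype CD1, grown on feeders without LIF and without Dox), gave 2 libraries and differ from the induced cells in strain and medium as well as in cell type. In the siRNA experiment, inducible cells received a non-targeting siRNA (siCTL) or a pool of siRNAs to Pou5f1, the gene of OCT4 (siOct4), at the start of Dox and were collected at 48 h, with 6 libraries per siRNA. All siRNA libraries derive from cells of 1 clone per the study's methods. The clone used for the induction series is not given in the sources used here. Feeders were removed by adsorption to plastic before lysis.

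Naive pluripotency, the state of the preimplantation epiblast and of ES cells kept in LIF, rests on a set of transcription factors that activate one another and act with OCT4 and SOX2. In the blastocyst inner cell mass, NANOG and GATA6 come to mark the future epiblast and the future primitive endoderm (PrE), respectively, and forced GATA6 turns ES cells into PrE-like cells. Of the genes described here, Nanog encodes a homeodomain factor, Esrrb, Nr0b1 (DAX1) and Nr5a2 (LRH-1) encode nuclear receptors, Tfcp2l1 a grainyhead-family factor that acts downstream of LIF, Tbx3 a T-box factor, Prdm14 a PR-domain zinc finger protein that represses DNA methyltransferase genes, Zfp42 (REX1) a zinc finger protein used as a marker of naive cells, and Sall4 a spalt-family zinc finger protein that is also expressed in PrE. Tcl1 is grouped with them by its expression but encodes a co-activator of the kinase AKT, not a transcription factor. In mm10 the genes lie at chr6:122707489-122714633 (Nanog), chr12:86361117-86521628 (Esrrb), chr1:118627945-118685168 (Tfcp2l1), chr5:119670669-119684724 (Tbx3), chr1:13113457-13127163 (Prdm14), chrX:86191764-86195947 (Nr0b1), chr1:136842571-136960448 (Nr5a2), chr8:43295063-43306980 (Zfp42), chr2:168748332-168767943 (Sall4) and chr12:105216750-105222793 (Tcl1).

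Promoters of 7 of the 10 genes were found among the RefSeq starts (GRCm38.p6). Tbx3, Prdm14 and Sall4 had no entry. The 250 bases before each start were searched on both strands for the octamer core ATGCAAA that OCT4 reads, the core CATTGT that SOX factors read, the GATA letters AGATAA and TGATAA, and the nuclear receptor letters AAGGTCA. Over all 32851 such windows, ATGCAAA occurred in 4.12%, CATTGT in 10.7%, AGATAA in 9.99%, TGATAA in 7.94% and AAGGTCA in 4.08%. The windows of Nanog, Zfp42 and Nr5a2 are shown because these genes fell together at the earliest time sampled, with matches to the searched letters in capitals, 5′ to 3′ on the strand of the gene.
Nanog, chr6:122707239-122707488, plus strand: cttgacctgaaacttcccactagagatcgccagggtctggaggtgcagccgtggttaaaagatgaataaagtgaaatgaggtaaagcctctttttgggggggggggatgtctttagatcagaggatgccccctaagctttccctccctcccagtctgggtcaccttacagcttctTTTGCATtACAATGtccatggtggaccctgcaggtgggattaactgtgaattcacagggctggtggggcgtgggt
Zfp42, chr8:43307010-43307259, minus strand: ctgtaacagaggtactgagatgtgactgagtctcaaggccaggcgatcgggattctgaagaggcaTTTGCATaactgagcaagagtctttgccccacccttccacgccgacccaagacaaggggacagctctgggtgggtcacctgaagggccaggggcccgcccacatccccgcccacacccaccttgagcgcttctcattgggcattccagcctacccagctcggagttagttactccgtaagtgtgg
Nr5a2, chr1:136960449-136960698, minus strand: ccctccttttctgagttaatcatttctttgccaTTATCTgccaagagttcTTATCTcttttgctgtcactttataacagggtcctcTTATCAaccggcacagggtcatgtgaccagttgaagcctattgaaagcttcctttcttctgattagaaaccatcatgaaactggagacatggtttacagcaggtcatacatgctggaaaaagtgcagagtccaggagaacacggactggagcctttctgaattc
The Nanog window holds the SOX and octamer letters 1 base apart, in the reverse orientation, an arrangement found in 2 of the 32851 windows (0.00609%), which are those of the 2 RefSeq starts of Nanog and share these letters. The Zfp42 window holds the octamer core alone, and the Nr5a2 window shown holds AGATAA at 2 places and TGATAA at 1, all in reverse orientation, whereas the window of its other RefSeq start, chr1:136953631-136953880, holds none of the searched letters. Of the other promoters found, Tcl1 has TGATAA in its window, and the windows of Tfcp2l1, Esrrb and Nr0b1 have none of these letters. A match is a string of letters in a window and not evidence of binding.

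Before the comparisons, labels and libraries were checked. Gata6 was at 0.193 to 0.375 TPM at 0 h and at 122 to 370 TPM in the Dox libraries of the induction series, a value in which transgene and endogenous transcripts cannot be told apart. Summed levels of 10 PrE and XEN cell markers went from 41.1 to 55.1 TPM at 0 h to 13552 to 14240 TPM at 168 h and 6321 to 6326 TPM in XEN cells. Summed levels of 5 ES cell markers went from 8943 to 9248 TPM at 0 h to 1761 to 2557 TPM at 168 h and 1.54 to 2.61 TPM in XEN cells. Of 10 feeder fibroblast markers, none was at 0 in every library of a group, and their sum was 37.7 to 114 TPM at 0 h and 131 to 284 TPM at 168 h, with the highest library of both times being replicate 3. That number was also the highest at 16, 24, 48 and 72 h (146, 138, 96.8 and 149.9 TPM) and the lowest at 96 h (80.5 TPM). At 168 h, 6 of the 10 markers were called higher than at 0 h, when 22.6% of all genes were. Replicate 3 at 24 h stood closer to the 16 h mean (root mean square log2 difference 0.319) than to the other 24 h libraries (0.345), and it was the highest of the 24 h libraries for all 8 of the genes that had fallen by 168 h. Replicate 3 at 72 h was the lowest of its time for the same 8 genes and had a feeder marker sum of 149.9 TPM, beside 54.9 and 63.9 TPM in the other 72 h libraries. It stood closer to the 48 h mean (0.484) than to the other 72 h libraries (0.557). Its PrE and XEN marker sum was 5179 TPM, beside 6116 and 6346 TPM. Replicate 3 at 48 h was the highest of its time for 7 of the 8 genes. Its PrE and XEN marker sum was 2804 TPM, beside 3557 and 3874 TPM. The part of feeder RNA in these values was not tested.

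In untreated ES cells, Zfp42 (292 ± 13.6 TPM, SD, n = 3) and Nanog (281 ± 15.3) were the highest of the 10, with overlapping ranges, followed by Esrrb (253 ± 4.44), Nr0b1 (176 ± 11.2) and Sall4 (99.96 ± 6.49), whose ranges did not overlap with those of their neighbours in this order. Tfcp2l1 (73.6 ± 12.1) and Tcl1 (64.7 ± 1.58) overlapped, as did Tbx3 (38.9 ± 13.5) and Nr5a2 (25.8 ± 6.79), while Prdm14 was the lowest (8.02 ± 0.394). By 168 h this order had been recast. Sall4 led at 126 ± 5.0 TPM, Zfp42 (32.2 ± 1.07) and Tbx3 (29.0 ± 10.8) followed with overlapping ranges, and the other 7 genes were at or under 3.59 TPM in each library.

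**Figure D1:**
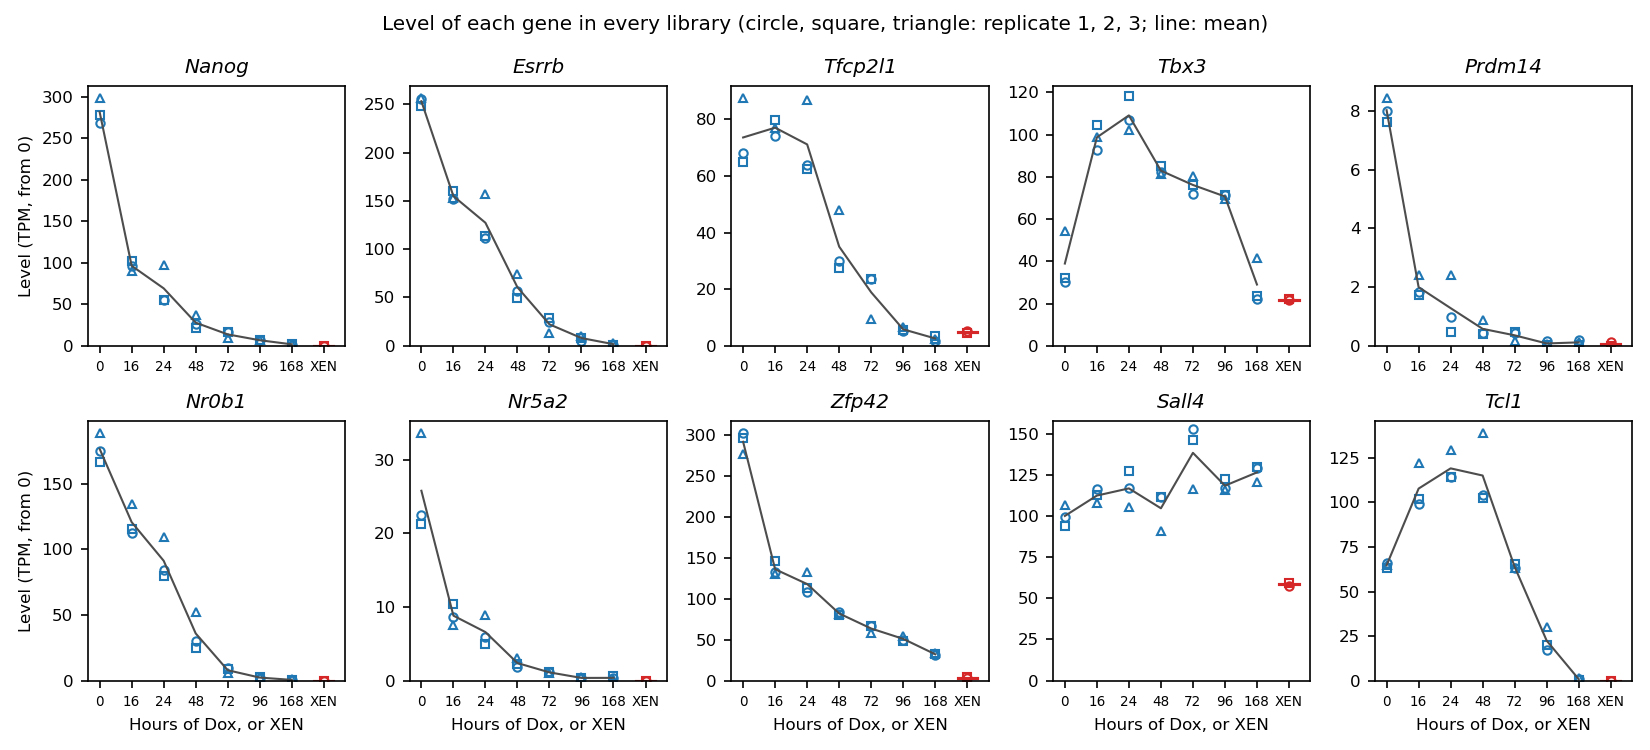
Level in TPM (y axis, from 0, a separate scale for each gene) of the 10 genes in each of the 23 libraries of the induction series against hours of Dox or XEN cells (x axis, sampled times evenly spaced). Open symbols are single libraries (circle, square and triangle for replicates 1, 2 and 3), and lines are group means. Nanog, Prdm14, Nr5a2 and Zfp42 drop at 16 h, Tcl1 and Tbx3 stand above their 0 h level at 24 h, and Sall4 stays between 90.8 and 153 TPM in all ES cell libraries.

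Nanog, Prdm14, Nr5a2 and Zfp42 were the genes that fell at the earliest time sampled. Nanog was at 268, 278 and 298 TPM at 0 h and at 96.6, 102 and 90.0 TPM at 16 h. It was then 55.2, 54.7 and 97.5 TPM at 24 h, and 1.48, 1.73 and 1.98 TPM at 168 h. Only at 24 h, because of replicate 3, did its range touch that of the time before. On the log2(TPM + 1) scale, which understates the change of low genes, Nanog changed by -1.54 (SE 0.22, adjusted p = 5.12e-05, limma) at 16 h and by -6.70 (SE 0.22, adjusted p = 1.70e-15) at 168 h.

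Prdm14 was at 8.0, 7.63 and 8.42 TPM at 0 h, at 1.84, 1.74 and 2.4 TPM at 16 h and at or under 0.193 TPM in all 3 libraries of 168 h. Its log2 change was -1.60 (SE 0.21) at 16 h and -3.02 at 168 h, a smaller value than that of Nanog on this scale although the group mean at 168 h was 1.44% of that at 0 h. Nr5a2 was at 22.4, 21.3 and 33.6 TPM at 0 h, at 8.58, 10.4 and 7.49 TPM at 16 h and at 0.295, 0.589 and 0.223 TPM at 168 h. The groups did not overlap, and its log2 change was -1.43 (SE 0.19) at 16 h and -4.27 at both 96 and 168 h.

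Zfp42 fell as early but less far. It was at 303, 297 and 277 TPM at 0 h, at 133, 146 and 130 TPM at 16 h and still at 31.1, 32.1 and 33.3 TPM at 168 h, 11.02% of the 0 h mean. Every later time was below 0 h without overlap, and its log2 change went from -1.10 (SE 0.09) at 16 h to -3.14 (SE 0.09, adjusted p = 1.98e-16, limma) at 168 h. The related sequence Zfp42-ps1 stood at or under 1.72 TPM in every library, and the Nanog pseudogenes Nanog-ps1 and Nanog-ps2 were listed at 0 in all. In bulk RNA, fewer cells that express a gene and less of its RNA per cell cannot be told apart.

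Esrrb and Nr0b1 fell next. Esrrb was at 255, 248 and 256 TPM at 0 h, at 152, 160 and 153 TPM at 16 h, at 57.0, 49.9 and 74.7 TPM at 48 h and at 0.621, 1.18 and 3.06 TPM at 168 h. Its log2 change was -0.70 at 16 h, which did not pass (95% interval -1.31 to -0.10, adjusted p = 0.130, limma), -1.003 at 24 h, which passed by a narrow margin, and -6.71 (SE 0.29) at 168 h. Without replicate 3 at 0 h the 24 h change was -0.99 and did not reach the minimum of 1. It also was not called without replicate number 1 (-0.91, adjusted p = 0.152, limma) or 2 (-0.94, adjusted p = 0.213). With pseudocount 0.1 it was -1.01 and missed on the adjusted p (0.0530). Nr0b1 was at 175, 166 and 188 TPM at 0 h, at 84.5, 80.0 and 109 TPM at 24 h, at 30.4, 25.0 and 52.3 TPM at 48 h and at 0.244, 0.284 and 1.11 TPM at 168 h. Its change was -0.96 at 24 h, under the minimum of 1, or -1.09 without replicate 3 at 24 h, and -2.33 at 48 h. At 168 h it reached -6.89 (SE 0.24), with the mean at 0.309% of that at 0 h.

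Tfcp2l1 kept its level for the first day. It was at 68.2, 65.1 and 87.5 TPM at 0 h, at 74.2, 79.9 and 77.1 TPM at 16 h and at 64.0, 62.6 and 86.9 TPM at 24 h, and these ranges overlapped. At 48 h it was at 29.9, 27.4 and 47.8 TPM, a log2 change of -1.08 (SE 0.27, adjusted p = 0.00207, limma) that was -0.95 and under the minimum without replicate 3 at 0 h. Its change was -1.999 at 72 h and -4.40 at 168 h, where it was at 1.85, 3.59 and 2.29 TPM.

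Tcl1 was the last to fall. It was at 66.1, 63.0 and 65.0 TPM at 0 h, at 98.9, 102 and 122 TPM at 16 h, at 114, 114 and 129 TPM at 24 h and at 104, 103 and 139 TPM at 48 h. All 9 of these Dox libraries were above all 3 untreated ones, with log2 differences of 0.72, 0.87 and 0.81 and adjusted p-values of 0.00649, 0.000643 and 0.000475 (limma) that were under the fold minimum and so were not called. At 72 h Tcl1 was back at 63.2, 65.4 and 63.0 TPM. It was then at 17.3, 19.7 and 30.2 TPM at 96 h, a fall of -1.53 on the log2 scale, and at 0.763, 0.447 and 1.26 TPM at 168 h, a change of -5.20 (SE 0.17) from 0 h.

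Tbx3 alone of the 10 rose past the threshold. It was at 30.4, 31.9 and 54.5 TPM at 0 h, at 92.8, 104 and 98.8 TPM at 16 h and at 107, 118 and 102 TPM at 24 h, with no overlap. Its log2 change was 1.37 (SE 0.19, adjusted p = 3.97e-05, limma) at 16 h, 1.51 at 24 h and 1.12 at 48 h, the last of which was 0.977 and 0.990 and under the minimum without replicate number 1 and 2. At 72 and 96 h it was at 69.7 to 80.5 TPM, changes of 0.999 and 0.89 that missed the minimum but were 1.26 and 1.16 and passed without replicate 3 at 0 h. At 168 h it was at 22.0, 23.6 and 41.4 TPM, and the change of -0.42 did not pass (95% interval -0.81 to -0.02, adjusted p = 0.0517). The highest library at 0 h and at 168 h was replicate 3, the library with the highest feeder marker sum of each time (114 and 284 TPM). The part of feeder cells in these Tbx3 values was not tested. The antisense gene Tbx3os1, which overlaps the start of Tbx3 and was quantified by strand, was at most 6.53 TPM in any library, and Tbx3os2 was at most 3.45 TPM.

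Sall4 was not called at any time. It was at 99.1, 94.0 and 107 TPM at 0 h, at 153, 146 and 116 TPM at 72 h and at 129, 130 and 121 TPM at 168 h. The largest log2 difference was 0.46 (95% interval 0.25 to 0.66, adjusted p = 0.000367, limma) at 72 h, and that at 168 h was 0.34 (95% interval 0.13 to 0.54, adjusted p = 0.00392), both under the minimum of 1.

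Counted over the 10 genes, all of which were tested, 4 were lower and 1 was higher than 0 h at 16 h, when 0.804% of the 15057 genes tested were lower and 1.97% higher. At 24 h, 5 were lower and 1 higher, with 2.44% and 3.24% of all genes. At 48 h the counts were 7 and 1, with 7.26% and 9.14% of all genes. From 72 h on no member was called higher (14.7%, 15.4% and 22.6% of all genes were, at 72, 96 and 168 h), and 7, 8 and 8 were called lower at these times, against 11.5%, 14.1% and 16.5% of all genes. The median log2 change of the 10 at 168 h was -4.33, beside 0.09 over all genes tested.

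**Figure D2:**
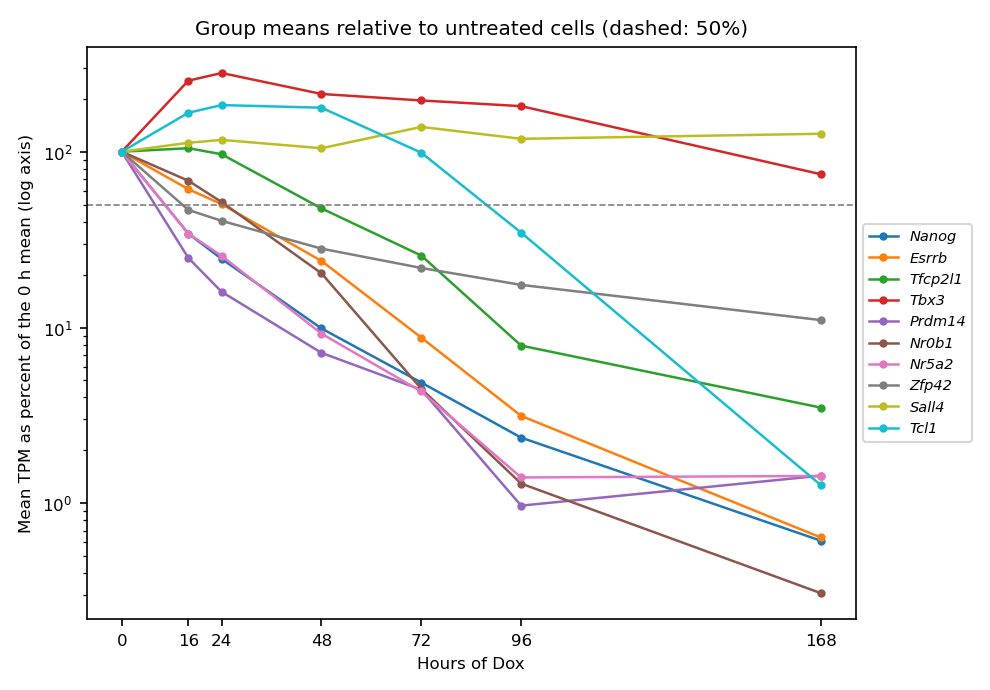
Group mean TPM of each gene as a percentage of its 0 h mean (y axis, log scale) against hours of Dox (x axis, to scale). Each line is 1 gene and the dashed line marks 50%. At 168 h Nr0b1 is at 0.309%, Zfp42 at 11.02%, Tbx3 at 74.5% and Sall4 at 126%.

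The order in which the genes fell was described by the time at which the group mean first crossed 50% of its 0 h value, interpolated on a log scale between sampled times and given with the SD over 3 series, each built from the libraries of 1 replicate number. Whether these numbers pair the induction libraries is not settled. The series are thus groupings by label, and their ranges cannot be taken as the spread of repeated time courses. Prdm14 crossed at 7.97 ± 0.767 h, Nr5a2 at 10.3 ± 4.02 h, Nanog at 10.3 ± 0.993 h and Zfp42 at 14.5 ± 1.10 h, all before the first sampled time, so that these values rest on the line drawn from 0 to 16 h. The range of Nr5a2 over the 3 series (7.39 to 15.4 h) covered parts of those of the other 3, whereas those of Prdm14, Nanog and Zfp42 did not overlap. Esrrb (24.2 ± 5.42 h) and Nr0b1 (24.9 ± 3.29 h) could not be ordered, and Tfcp2l1 (46.3 ± 3.43 h) and Tcl1 (87.6 ± 4.97 h) followed with separate ranges. Tbx3 and Sall4 did not cross 50%.

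**Figure D3:**
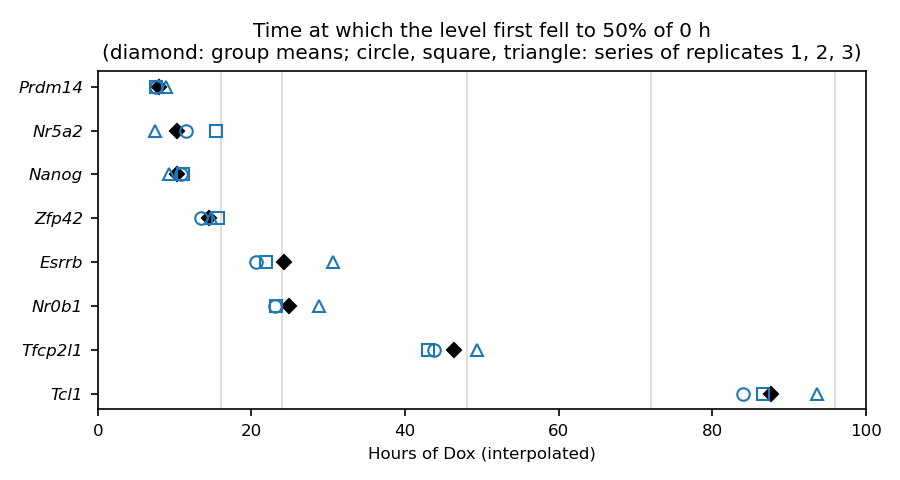
Interpolated hours of Dox (x axis) at which each of the 8 genes that fell first reached 50% of its 0 h level. Diamonds use group means, open symbols the series of replicates 1, 2 and 3, and grey lines mark sampled times. The 4 earliest genes lie before 16 h, and Tcl1 lies at 84.0 to 93.6 h.

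The same changes were also tested as steps between neighbouring times. From 0 to 16 h the called genes were those named above. From 16 to 24 h no member was called by limma (3 had an unadjusted p under 0.05), and few genes of the transcriptome were (0.12% lower, 0.232% higher). From 24 to 48 h, 5 members fell (Nanog, Esrrb, Tfcp2l1, Nr0b1 and Nr5a2, by 1.03 to 1.38 on the log2 scale), against 2.44% of all genes lower and 3.12% higher. Only Nr0b1 of these stayed called without replicate 3 at 24 h.

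From 48 to 72 h, Esrrb (-1.46) and Nr0b1 (-2.01) fell, with 1.38% of all genes lower and 1.95% higher. Without replicate number 3 at every time 1 member was called at this step, and without number 2, 4 were. From 72 to 96 h, Esrrb (-1.34), Tfcp2l1 (-1.45), Nr0b1 (-1.43) and Tcl1 (-1.51) fell, with 1.04% lower and 0.671% higher, and 5 were called without replicate 3 at 72 h. With replicate number 1 or 2 left out at every time, none of these 4 was called at this step. From 96 to 168 h, Nanog, Esrrb, Tbx3, Nr0b1 and Tcl1 fell, with 2.44% lower and 5.23% higher. The fall of Tcl1 at this step, -3.67 (SE 0.17, adjusted p = 2.28e-11, limma), was the largest step of any of the 10 genes. Prdm14 was called at the first step only, where most of its RNA was lost. Zfp42 likewise was called at the first step only, and its later steps, between -0.65 and -0.21, missed the fold minimum, those from 24 h on with adjusted p-values of at most 0.0218 (limma). Esrrb and Nr0b1 were called lower at each of the 4 steps from 24 h on. Not all of these calls held with a replicate number left out. Esrrb was not called from 48 to 72 h without number 3 (-0.97). Nr0b1 was not called from 96 to 168 h without number 2 (-0.93).

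**Figure D4:**
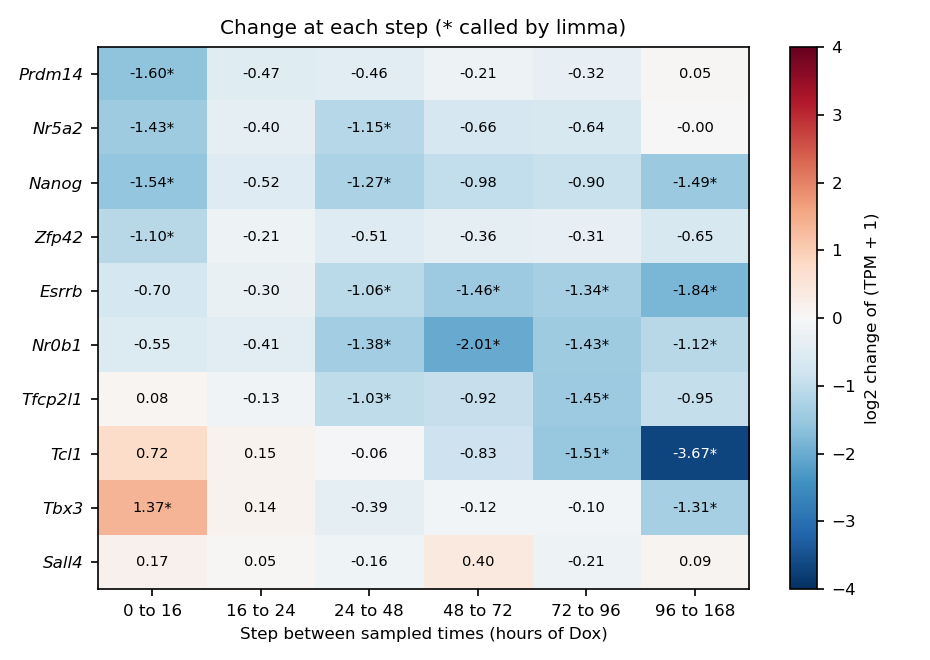
log2 change of TPM + 1 (colour and printed value) of each gene (rows, ordered by the time of their fall) at each step between sampled times (columns). An asterisk marks a change called by limma at an adjusted p under 0.05 and a log2 change beyond 1. The largest step is the fall of Tcl1 from 96 to 168 h, and Sall4 has no called step.

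XEN cells served as the reference for PrE. Esrrb, Nr0b1, Nr5a2 and Tcl1 were listed at 0 in both XEN libraries, Nanog at 0.0404 and 0 TPM and Prdm14 at 0.142 and 0 TPM. Zfp42 was at 3.11 and 4.04 TPM, Tfcp2l1 at 5.36 and 4.64 TPM, Tbx3 at 21.5 and 22.1 TPM and Sall4 at 57.7 and 59.1 TPM. The first 8 of these genes were lower than in untreated ES cells by the test, against 18.7% of all genes lower and 18.9% higher. For Tbx3 and Sall4 the log2 difference was -0.76 in both cases (95% intervals -1.20 to -0.32 and -0.99 to -0.54), under the minimum of 1.

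Against cells at 168 h of Dox, 4 members were lower in XEN cells and none was higher (9.17% and 4.73% of all genes). On the log2(TPM + 1) scale Zfp42 had the largest difference, with 31.1 to 33.3 TPM at 168 h (log2 difference -2.87, SE 0.10, adjusted p = 2.45e-14, limma). Sall4 was lower by -1.10 (SE 0.11), or by -0.93 and not called after rescaling of libraries by median-of-ratios factors, and Nanog and Esrrb, already at or under 3.06 TPM at 168 h, were lower too. Esrrb was not called without replicate 3 of 168 h or without replicate number 2. With a pseudocount of 0.1 in place of 1, 7 were lower, Nr0b1 (-2.44), Nr5a2 (-2.15) and Tcl1 (-3.11) being added, all of them listed at 0 in XEN cells so that these values depend on the pseudocount. Tfcp2l1 was at 1.85 to 3.59 TPM at 168 h, below both XEN libraries. Its log2 difference of 0.77 missed only the minimum of 1 (95% interval 0.15 to 1.40, adjusted p = 0.0386, limma). The median of all genes tested differed by -0.14 in this comparison.

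Other genes of the network gave the setting for these changes. Over all genes tested, 0.804% were lower and 1.97% higher at 16 h, and 16.5% and 22.6% at 168 h. Of 15 other naive network genes tested, 11 were lower and 1 was higher at 168 h (median log2 change -3.02), with Fgf4 (-5.77), which encodes an FGF ligand, and Dppa3 (-5.13), a maternal and germ cell factor, the lowest, and Stat3 (1.26), which transduces the LIF signal, and Klf4 (0.81, not called), a Krüppel-like factor, the highest. At 16 h, 4 of the 15 were lower and none was higher. Of 14 general pluripotency genes, 12 had fallen by 168 h. At 16 h the test called 2 of the list lower. The lowest at 168 h were Tdgf1 (-7.43), a co-receptor for NODAL, and Sox2 (-6.28), and the highest were Tcf7l1 (0.35) and Lin28a (-0.20), both not called. Pou5f1 was at 1558 to 1833 TPM at 0 h, at 1304 to 1382 TPM at 16 h and at 39.1, 39.1 and 112 TPM at 168 h.

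Of 11 formative and primed genes tested, 7 were lower and none was higher at 168 h, with Etv4 (-5.18), an effector of FGF signalling, and Tcf15 (-4.43) the lowest and Zic2 (0.25) and Dnmt3l (-0.08) not called. At 16 h, 2 of the 11 were lower and 2 higher (0.804% and 1.97% of all genes). The higher ones were the DNA methyltransferase genes Dnmt3a (2.84) and Dnmt3b (1.66), named after their values were seen. Of 11 relatives of the 10 genes tested, 2 were lower and 2 higher at 168 h (16.5% and 22.6% of all genes), with a median of 0.35 beside 0.09 over all genes. Sall2, a relative of Sall4, had a change of 1.66 and Esrra, a relative of Esrrb, one of 1.54, whereas Prdm1 (-2.60) and Prdm16 (-1.02), relatives of Prdm14, were lower.

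Likeness of profile was described by Pearson's r of log2(TPM + 1) over the 23 libraries, which share the time course and are not independent points. Among the 10 genes, Esrrb and Nr0b1 (r = 0.985) and Nanog and Esrrb (r = 0.982) were the most alike, and Sall4 had r between -0.08 and 0.50 with the other 9. Over all genes tested, the closest to Nanog were Sox2 (0.995), Tdgf1 (0.994) and Dlgap3 (0.990). Those closest to Esrrb were Rbmxl2 (0.996), AU018091 (0.993) and Ifitm2 (0.992), and those closest to Nr0b1 were Hsf2bp (0.997), Ifitm2 (0.993) and Mymx (0.993). Nr5a2 was closest to Arc (0.992), Cobl (0.990) and Trh (0.990), and Prdm14 to Zmat4 (0.983), Slfn9 (0.980) and 2310043M15Rik (0.979). Tfcp2l1 was closest to Paics (0.987), Mybl2 (0.986) and Zbtb32 (0.983), Zfp42 to Gm20541 (0.986), Znf41-ps (0.981) and Gm17067 (0.9751), and Tcl1 to Arvcf (0.982), Klhl13 (0.980) and Foxh1 (0.980). Tbx3 and Sall4 had looser neighbours, Neto2 (0.944), Trim8 (0.940) and Lrrn4 (0.939) for Tbx3 and Cd38 (0.920), Ncoa3 (0.914) and Cux1 (0.908) for Sall4. Over the 8 group means in place of the libraries, 7 of these 30 genes were again among the 3 closest.

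The siRNA libraries address whether levels of these genes during GATA6 induction depended on OCT4. Pou5f1 was at 782 to 1194 TPM in the 6 siCTL libraries and at 282 to 387 TPM in the 6 siOct4 libraries (log2 change -1.52, SE 0.14, adjusted p = 5.21e-05, or 6.19e-06 with the replicate block, limma). Libraries differed widely within each siRNA. In siCTL, libraries 1 and 2 (root mean square log2 difference 0.273) and 5 and 6 (0.293) were each alike, all other pairs were 0.50 to 1.06 apart, and Nanog ranged from 2.53 to 30.7 TPM. Libraries of the same number deviated together from their group means (r of 0.236 to 0.707 in the 6 pairs). Pairs of different numbers had r of -0.556 to 0.459, which overlaps this range. Results are therefore given without and with the number as a block. Feeder marker sums (5 of 10 markers are in the table) were highest in siCTL libraries 1, 2 and 4 (175 to 210 TPM) and in siOct4 libraries 5 and 6 (191 and 213 TPM), against 26.1 to 62.3 TPM in the others. Trophectoderm marker sums (4 of 6 markers are in the table) were 10.8 to 21.8 TPM in siCTL and 13.4 to 81.0 TPM in siOct4, highest in libraries 5 and 6, and with the block 2 of the 4 were called higher. In the induction series, without siRNA, the sum of all 6 was 3.34 to 3.44 TPM at 0 h and 19.4 to 22.7 TPM at 48 h. There, 3 of the 4 tested were called higher at 48 h, with 9.14% of all genes. Of 10 PrE and XEN cell markers, none was called without the block and 5 were lower with it. With the block, 2.43% of all genes tested were higher and 6.15% lower. Gata6 was lower in siOct4 in 6 of 6 pairs (log2 difference -0.50, adjusted p = 0.326 without and 0.0503 with the block, limma). The part of these in the values that follow was not tested.

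Tcl1 was the only one of the 8 genes called without the block. With siCTL its level was 66.2 TPM at the lowest, 89.7 at the median and 139.8 at the highest, and with siOct4 these were 19.9, 36.7 and 44.7 TPM. The groups did not overlap. Its log2 change was -1.56 (SE 0.23, adjusted p = 0.00184, limma), with all 6 pairs lower. Of the 6264 genes tested, all on the authors' list of responsive genes, 1.72% were lower and 0.942% higher. When libraries 1 and 2, 3 and 4, and 5 and 6 were averaged, leaving 3 per siRNA, the change was -1.57 with an adjusted p of 0.0990, and no member was called. Pou5f1, the target of the siRNA, was not called in that fit either (-1.52, adjusted p = 0.0573, limma).

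With the replicate block, 4 of the 8 genes, Tcl1 among them, were called lower and 1 higher, when 6.15% of all genes were lower and 2.43% higher. The lowest, median and highest levels of Nr0b1 were 4.63, 17.1 and 23.5 TPM with siCTL and 2.62, 4.92 and 9.72 TPM with siOct4, lower in 6 of 6 pairs although the groups overlapped. Its log2 change was -1.33 (adjusted p = 0.0864 without and 0.00164 with the block, limma), and it was also called without the block when replicate number 3 was left out (-1.47, adjusted p = 0.0285). Those of Esrrb were 3.77, 26.4 and 58.5 TPM with siCTL and 3.45, 10.4 and 35.8 TPM with siOct4. It too was lower in 6 of 6 pairs, by -0.82 (adjusted p = 0.656 without and 0.0176 with the block).

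Tbx3 had a lowest, median and highest level of 33.7, 54.7 and 114 TPM with siCTL and of 20.2, 35.4 and 49.6 TPM with siOct4. The change was -0.80 (adjusted p = 0.206 without and 0.0164 with the block, limma), lower in 6 of 6 pairs, and it was also called without the block after rescaling by median-of-ratios factors (-0.65, adjusted p = 0.0420). Nr5a2 went the other way. Its lowest, median and highest levels were 0.328, 1.11 and 3.65 TPM with siCTL and 0.881, 2.42 and 6.397 TPM with siOct4, higher in 6 of 6 pairs by a mean of 0.66 (adjusted p = 0.498 without and 0.0426 with the block).

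Zfp42 was lower in 6 of 6 pairs, with a median of 78.4 TPM (68.7 to 103) under siCTL and of 54.3 TPM (49.2 to 75.4) under siOct4, but its change of -0.46 was under the minimum of 0.5 used for the knockdown (adjusted p = 0.204 without and 0.0211 with the block, limma). Nanog and Tfcp2l1 went both ways. Nanog, with medians of 9.08 TPM under siCTL and 6.22 TPM under siOct4, was lower in 2 pairs and higher in 4 (0.09, 95% interval -1.25 to 1.43, or -0.36 to 0.53 with the block), and Tfcp2l1 was lower in 4 and higher in 2 (-0.16, 95% interval -1.42 to 1.09, or -0.60 to 0.27 with the block). These intervals do not show that the genes did not differ. Set beside the Dox libraries of 48 h without siRNA, which were made as a separate experiment and were not compared by a test, all 6 siCTL libraries were below the range of Nr0b1 (25.0 to 52.3 TPM). Having siCTL libraries below the 48 h range was not particular to Nr0b1. Of the 6 siCTL libraries, 5 were below the 48 h range for Tbx3, 4 for Nanog, Esrrb, Nr5a2 and Tcl1, and 3 for Tfcp2l1 and Zfp42. The remaining libraries were within or above it. For Tfcp2l1 and Zfp42 the siCTL libraries lay on both sides of the range. The Zfp42 mean was 82.7 TPM with siCTL, beside 82.1 TPM at 48 h. For Gata6 5 siCTL libraries were below the 48 h range, and for Pou5f1 4.

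**Figure D5:**
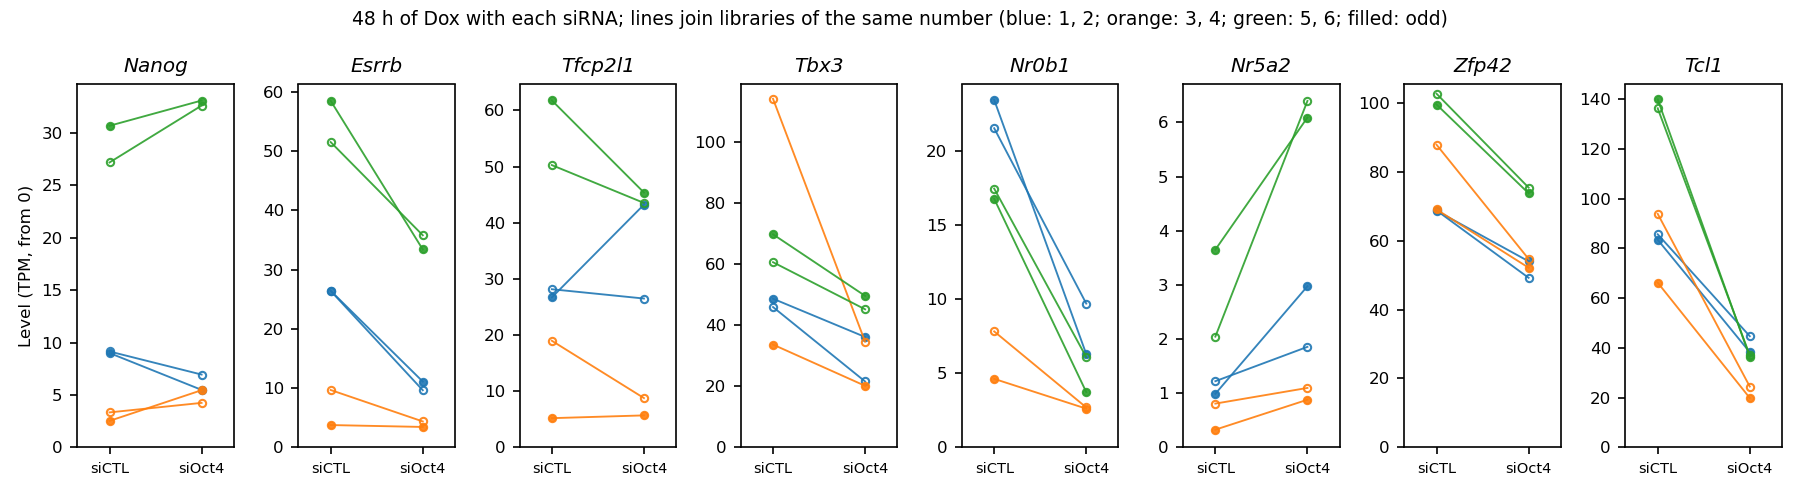
Level in TPM (y axis, from 0, a separate scale for each gene) of the 8 genes of the siRNA table in siCTL and siOct4 libraries at 48 h of Dox. Lines join libraries of the same number, coloured for libraries 1 and 2, 3 and 4, and 5 and 6. Tcl1 is lower without overlap of the groups, Nr5a2 is higher in 6 of 6 pairs, and Nanog goes both ways.

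Lists fixed for the network gave the background of the knockdown. Over all genes tested, 1.72% were lower and 0.942% higher without the block, and 6.15% and 2.43% with it. Without the block, of 12 other naive network genes in the table, 2 were lower (Tdh, -1.31, and Spp1, -1.08, named after their values were seen) and none was higher. With it, 4 were lower and 1 was higher. Among the general pluripotency genes, those lower in both fits included Pou5f1 itself and Gdf3 (-1.19, named after its value was seen). Of 7 formative and primed genes, none was called without the block and 3 were lower with it (Dnmt3a, -1.19, Tcf15, -0.999 and Etv4, -0.86, named after their values were seen). None of 3 relatives was called in either fit. The median log2 change of the 8 genes described here was -0.63, beside -0.12 over all genes tested.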

How the data were processed

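PolyA RNA-seq libraries were stranded and paired-end. The authors aligned them with STAR (mm10), ran RSEM in its strand-specific mode, left out outlier libraries, and deposited TPM values. The submitters' processing notes also name bcl2fastq and cutadapt. Versions of these tools and the gene annotation are not given in the sources used here. The deposited siRNA table also holds the authors' group means, response classes and siOct4 classes, which are their findings and were not used. Column sums of 999764 to 999881 TPM (induction) and 274527 to 355895 TPM (siRNA, a selected set of genes) keep no depth, so depth is unknown and no counting interval was given.

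Where a symbol occurred again (60 symbols), its row of largest mean entered. Genes whose mean reached 1 TPM in any group were tested on log2(TPM + 1) with limma 3.58.1 in R 4.3.3 (trend and robust), all 23 induction libraries or all 12 siRNA libraries in 1 fit, with Benjamini-Hochberg adjustment over all genes tested. Calls needed an adjusted p under 0.05 and a log2 change beyond 1 (induction, XEN) or 0.5 (siRNA), the study's thresholds. The fit was tested on simulated data. Python 3.11.15, numpy 2.4.6 and pandas 2.3.3 were used for descriptions. Gene spans came from GENCODE and promoters from RefSeq, both on the mm10 assembly.

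The siRNA numbers were taken as pairs because every same-numbered pair of libraries deviated together (r 0.236 to 0.707, n = 6 pairs). This pairing is not settled by the values. Pairs of different numbers had r of -0.556 to 0.459 (n = 30, mean -0.0640). Of the 6 siCTL libraries, 4 were closest to the siOct4 library of their own number. In the induction series same-numbered pairs had low r (63 pairs, mean 0.0435, lowest -0.186, highest 0.219, 15 over 0.1). Those of different numbers had a mean r of -0.0215 (126 pairs, lowest -0.241, highest 0.188, 6 over 0.1). Whether the numbers pair the induction libraries is thus not settled either. Groups and numbers came from the sample titles. The study's methods describe the libraries of an induction time as independent replicates, without saying what was repeated. For Oct4 and endogenous Gata6 at 48 h of the knockdown, its legends give 6 independent experiments. The Gata6 values were compared there by a paired test.

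The genes and lists were chosen with earlier results of these data known. Named are the 10 genes, for each the 3 genes with the highest correlation, and of each list the 2 highest and the 2 lowest changes at 168 h. Alternatives were another scaling, other filters, pseudocount 0.1, no fold minimum, only the groups compared, the replicate block and leaving out each replicate. Leaving out replicate 3 of 0, 24, 72 or 168 h and averaging adjacent siRNA libraries were chosen after seeing the data. The siOct4 result of 1 listed gene is not reported here.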

Additional observations from a re-analysis of the deposited data

How the results depend on the processing

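Counts of the 10 genes called against 0 h and in XEN cells against 0 h stayed within 1.5 times of the reported values under every alternative run. All times of 50% crossing stayed within 1 SD. That SD came from the same 3 series that were left out in turn, so leaving 1 out could hardly exceed it. The time of Nr5a2 ranged from 8.88 to 13.3 h with a replicate number left out. Leaving out each replicate number gave 5, 5 to 7, 7 to 8, 7 to 8, 8 to 9 and 8 genes called against 0 h at 16, 24, 48, 72, 96 and 168 h, 8 for XEN against 0 h and 3 to 4 for XEN against 168 h. The steps moved more: 3 to 5 from 24 to 48 h (1 without replicate 3 at 24 h), 1 to 4 from 48 to 72 h, 0 to 5 from 72 to 96 h, 5 from 96 to 168 h and 0 from 16 to 24 h. Without number 2, Tfcp2l1 was called from 96 to 168 h in place of Nr0b1. From 48 to 72 h, 8 were called with no fold minimum and 4 with pseudocount 0.1. From 72 to 96 h, 7 were called with no fold minimum and 1 with only these 2 groups in the fit. For XEN against 168 h, pseudocount 0.1 called 7. For these, where no sample was left out, the cause was not tested.

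With siOct4, 1 gene was called in the main analysis, 5 with the replicate block, 2 after median-of-ratios rescaling, 1 to 2 with each replicate number left out and 0 with adjacent libraries averaged. The averaged fit did not call Pou5f1 either. In the induction series, where it is not settled whether the numbers pair the samples, the replicate block left the count of called genes the same in every comparison (5, 6, 8, 7, 8 and 8 against 0 h).

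Directions turned only for changes that were not called. Over the fits that left out a library or a replicate number, Tfcp2l1 ranged from -0.030 to 0.206 at 16 h and from -0.203 to 0.077 at 24 h, Sall4 from -0.031 to 0.207 at 48 h and from -0.0091 to 0.120 from 16 to 24 h, Tcl1 from -0.0548 to 0.0042 at 72 h, Prdm14 from -0.351 to 0.030 from 48 to 72 h and Nr5a2 from -0.148 to 0.121 from 96 to 168 h. With siOct4, Nanog ranged from -0.069 to 0.230 and Tfcp2l1 from -0.329 to 0.012. Rescaling turned Sall4 from 96 to 168 h (-0.038), and the replicate block turned Prdm14 in XEN against 168 h (0.0070). Of the 30 genes closest in profile, 7 were shared when group means were used.

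TPM keeps no read depth, so how far counting error limits values near 0 is unknown. Groups hold 2 or 3 libraries in the induction series. XEN cells differ from the induced cells in strain and medium, which cannot be told apart from cell type.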
